A study of Mus musculus with 4 samples.

Results

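Enteroendocrine cells are the scattered hormone-producing cells of the gut lining, and they store peptide hormones and serotonin in secretory granules. The expression of 9 genes of these granules and of serotonin synthesis was described in sorted intestinal stem cells. The genes were chosen by name, with earlier results of these data known. Comparisons of the 9 with all genes are therefore descriptive only. They comprised the granins Chga, Chgb and Scg2, the prohormone-processing enzymes Pcsk1 and Cpe, the exocytosis regulator Cplx2, the serotonin-synthesis enzyme Tph1, and the enteroendocrine-lineage genes Vwa5b2 and Reg4. Each had 1 row among the 18436 genes of the table, and all 9 were among the 12621 genes that were tested, those whose mean reached 0.5 FPKM (fragments counted per kilobase of a transcript and scaled by library size) over the mice.

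Lgr5-GFPhigh cells, the brightest cells of crypts dissociated from the intestine, were sequenced from 2 mice labelled Lgr5 and 2 mice labelled Lgr5KO, hereafter WT and KO mice. All 4 animals were C57BL/6 mice carrying Lgr5-EGFP-IRES-CreERT2, an allele that makes GFP and a tamoxifen-activated Cre recombinase wherever Lgr5 is expressed and that is silent in some crypts. The KO mice also carried CREPT fl/fl, in which an exon of Rprd1b, the gene encoding the nuclear protein CREPT, lies between loxP sites, and the WT mice did not. By the methods of the study, mice were 6 to 8 weeks old, each received tamoxifen intraperitoneally at 1 mg a day for 5 days, and cells were sorted on day 7. The comparison addresses what loss of CREPT does to the transcripts of Lgr5-expressing stem cells. Each mouse is a separate library, so every comparison is of 2 mice with 2 mice.

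Granins are acidic proteins that condense in the Golgi apparatus and package hormones into dense-core granules. Inside the granule a prohormone convertase cuts hormone precursors at paired basic residues and carboxypeptidase E trims the ends, and the granule then waits for a calcium signal that triggers fusion with the cell membrane. Enterochromaffin cells are the enteroendocrine cells that make most of the serotonin in the body, starting from tryptophan. Stem cells at the crypt base give rise to all of these cells through secretory progenitors.

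Rprd1b was 17.7 and 18.1 FPKM in the WT mice and 6.65 and 7.36 FPKM in the KO mice, a log2 fold change of -1.29 on log2(FPKM + 0.5), KO minus WT (adjusted p = 0.0280, limma's moderated test with Benjamini-Hochberg adjustment over all genes tested). The sorted cells carried stem cell transcripts in every mouse. Lgr5 was 47.7 and 37.7 FPKM in the WT mice and 52.0 and 60.1 FPKM in the KO mice (log2 fold change 0.40, adjusted p = 0.176, limma). Olfm4, an abundant marker of crypt base stem cells, was 5077 and 4932 FPKM in the WT mice and 5351 and 5181 FPKM in the KO mice (0.07, adjusted p = 0.685, limma). FPKM values of all genes summed to between 468830 and 499327 per mouse. The table holds no counts. The depth was estimated from genes with a single transcript, at 17200000 to 18000000 reads per mouse. The value of 1 read was taken as the median of FPKM times length within a range set in advance, which bounds the estimate.

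In the KO mice, 8 of the 9 genes were lower than in both WT mice and the ninth, Reg4, was higher than in both. Chgb and Cpe fell, by 1.18 and 1.84 on the log2 scale. They were the 2 of the 9 genes with an adjusted p below 0.05, against 2.67% of all genes tested that passed the test in that direction, and none of the 9 passed it as higher, against 0.412% of all genes. Both also had a log2 fold change below -1. Of all genes tested, 1.01% met both that threshold and the adjusted p. Chga, Scg2, Cplx2 and Vwa5b2 had adjusted p-values between 0.0595 and 0.0801. The median log2 fold change of the 9 genes was -1.04 and that of all genes tested was -0.01.

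Without overlap between the genotypes, the KO mice lay below the WT mice in 8 of the 9 genes, a pattern shared by 31% of all genes tested. The opposite pattern, found for Reg4, was shared by 25.6%. By the unadjusted p of limma's moderated test, 8 of the 9 genes were lower at a p below 0.05, against 15.2% of all genes, and 1 was higher, against 9.27%. The number of the 9 genes called lower depended on the settings of the test. With any 1 of the 4 mice left out, a genotype was left with 1 mouse, and 8 of the 9 genes kept a negative log2 fold change. That sign was fixed in advance, because the genotypes do not overlap in these 8 genes, so it adds nothing to the result above. Without the filter on low values the number was 0. By the unadjusted p it was 7, where 3570 of 18436 genes passed in either direction. Without the intensity trend of limma it was 0. By the unadjusted p it was then 8, where 2921 of 12621 genes passed in either direction. Another setting, chosen after the data were seen, left out genes with no transcript of at least 200 bases in GENCODE M21, including genes not found there. With it the number was 5 (Chga, Chgb, Cpe, Cplx2 and Vwa5b2), and 520 of the 11922 genes then tested were lower.

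**Figure D1:**
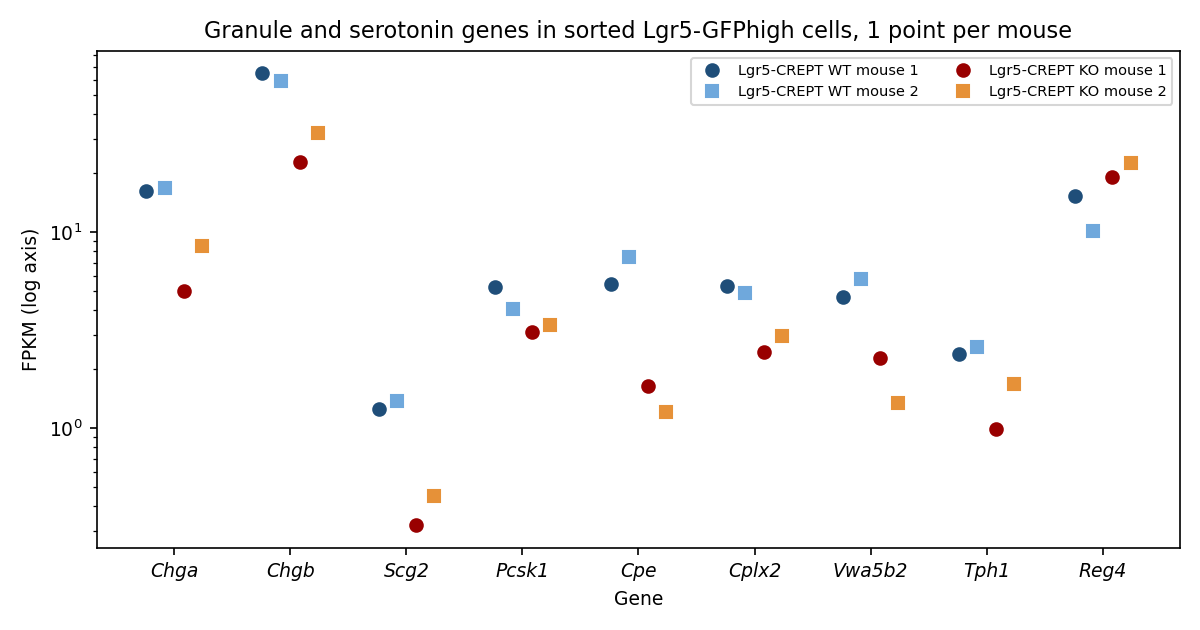
FPKM of the 9 genes on a log axis, with 1 point per mouse (blue, WT mice; red and orange, KO mice). Both KO points lie below both WT points for every gene except Reg4, where KO values of 19.1 and 22.5 FPKM lie above WT values of 15.3 and 10.2 FPKM.

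Short stretches of the promoters are shown because the granin and convertase genes share a sequence there. In RefSeq windows from 250 bases before to 50 bases after the start site, on GRCm38.p6, 8 of the 9 genes had a window (10 windows in all). The palindrome TGACGTCA, the cyclic AMP response element (CRE), is the sequence bound by CREB, a factor activated by cyclic AMP. It occurred in the windows of Chgb, Scg2 and Pcsk1, and Chga had the variant TGACGTAA. Each stretch is given 5′ to 3′ on the strand of the gene, with the element in capitals.
Chgb, chr2:132781559-132781588, plus strand: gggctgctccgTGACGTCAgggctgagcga
Scg2, chr1:79440076-79440105, minus strand: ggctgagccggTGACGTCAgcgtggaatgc
Pcsk1, chr13:75089768-75089797, plus strand: ccaggtagatcTGACGTCAagagatggctt
Chga, chr12:102554886-102554915, plus strand: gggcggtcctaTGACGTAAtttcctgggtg

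The element began 72 bases before the RefSeq start site of Chgb, 68 bases before that of Scg2, 78 bases before that of Pcsk1 and 44 bases before that of Chga. GENCODE M21 starts the Chgb and Scg2 transcripts further upstream, so that the stretches of these genes lie in their first exons there, and the RefSeq span of Pcsk1 also begins upstream of its stretch. On either strand, TGACGTCA was in 1.79% of all 32851 windows and in 3.13% of the 12054 windows of genes tested, and TGACGTAA was in 0.499% and 0.83%. The shorter TGACG, which lies inside both, was in 6 of the 8 genes (Chga, Chgb, Scg2, Pcsk1, Vwa5b2 and Tph1) and in 20.8% of all windows and 30.7% of those of genes tested. The E-box CANNTG, the kind of site bound by basic helix-loop-helix factors such as those of the enteroendocrine lineage, was in 7 of the 8 (all but Pcsk1) and in 72.3% and 64.7%. Of the other motifs searched, TATAAA was in 1 of the 8 genes (13.6% of all windows and 7.36% of those of genes tested), GGGCGG in 5 (35.7% and 61.5%) and CCAAT in 3 (37.4% and 38.2%). A gene was counted if any of its windows matched, whereas the percentages are per window, so the 2 are not on the same footing. The motifs were picked after several had been looked for, and a match is a description of the letters only.

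Chgb encodes chromogranin B and lies on chromosome 2 (132781642 to 132795079, plus strand, 5 exons). It had the highest level of the 9 genes, 64.7 and 59.3 FPKM in the WT mice and 22.9 and 31.9 FPKM in the KO mice. The KO mean of 27.4 ± 6.41 FPKM (SD, n = 2) was 44.2% of the WT mean of 62.0 ± 3.83 FPKM (SD, n = 2), and the lower WT mouse was above the higher KO mouse. The log2 fold change was -1.18 (standard error 0.168, 95% interval -1.61 to -0.75, adjusted p = 0.0423, limma's moderated test). In bulk RNA, fewer cells of a type and less RNA per cell cannot be told apart.

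Chga encodes chromogranin A, the most widely used marker of enteroendocrine cells, and lies on chromosome 12 (102554941 to 102565027, plus strand, 8 exons). It was 16.2 and 16.8 FPKM in the WT mice and 5.03 and 8.48 FPKM in the KO mice. The WT mice were nearly alike and the KO mice stood apart from each other, with mouse 2 at 1.69 times mouse 1, but both were well under the WT values. The log2 fold change of -1.27 (standard error 0.238, 95% interval -1.88 to -0.66) did not pass the adjusted test (adjusted p = 0.0638, limma).

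Scg2 encodes secretogranin II, the precursor of the peptide secretoneurin, and lies on chromosome 1 (79434366 to 79440026, minus strand, 2 exons). It had the lowest level of the 9 genes, at 1.25 and 1.38 FPKM in the WT mice and 0.32 and 0.45 FPKM in the KO mice. The KO mean was 29.3% of the WT mean, the lowest share among the granins. On the log2 scale the difference was -1.04 (standard error 0.228, 95% interval -1.63 to -0.45, adjusted p = 0.0801, limma), which is understated by the added 0.5 at such levels. These values rest on an estimated 14.5 to 62.2 reads per mouse, against 1128 to 3180 reads for Chgb.

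The mixture of the granins was nearly the same in all 4 mice. Summed over Chga, Chgb and Scg2, granin FPKM was 82.1 and 77.5 in the WT mice and 28.2 and 40.9 in the KO mice. Chgb made up 78.8% and 76.6% of that sum in the WT mice and 81.1% and 78.2% in the KO mice, and Chga 19.7% and 21.7% against 17.8% and 20.7%. The shares of Chgb and of Chga overlapped between the genotypes. The share of Scg2 did not, at 1.52% and 1.78% in the WT mice and 1.13% and 1.10% in the KO mice.

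Among other granule cargo genes, Nucb2, which encodes the nesfatin precursor, was 2.93 and 3.65 FPKM in the WT mice and 1.72 and 1.90 FPKM in the KO mice (log2 fold change -0.71, adjusted p = 0.0910, limma). Scg3, Scg5, Vgf and Pcsk1n, which encode further granin-family proteins, were below the filter and not tested. In each of these the KO mice were below the WT mice, a pattern shared by 31% of all genes tested. Scg5, whose product is the chaperone of a second prohormone convertase, was 0.59 and 0.62 FPKM in the WT mice and 0.04 and 0.05 FPKM in the KO mice. Values this low rest on few reads.

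Cpe, which encodes carboxypeptidase E, lies on chromosome 8 (64592542 to 64693109, minus strand, 9 exons). It was 5.42 and 7.44 FPKM in the WT mice and 1.64 and 1.21 FPKM in the KO mice. The KO mean of 1.43 ± 0.304 FPKM (SD, n = 2) was 22.2% of the WT mean of 6.43 ± 1.43 FPKM (SD, n = 2), the lowest share of the 9 genes. Its log2 fold change of -1.84 (standard error 0.211, 95% interval -2.39 to -1.30, adjusted p = 0.0333, limma's moderated test) had the greatest size among them. The 2 genotypes stood clearly apart, as the higher KO mouse was at 0.303 times the lower WT mouse.

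Pcsk1, which encodes the convertase that acts before Cpe on the same precursors, lies on chromosome 13 (75089420 to 75134861, plus strand, 14 exons). It was 5.26 and 4.07 FPKM in the WT mice and 3.09 and 3.38 FPKM in the KO mice. The genotypes did not overlap, but the higher KO mouse came to 0.830 times the lower WT mouse, the narrowest gap among the 8 lower genes. The log2 fold change was -0.46 (standard error 0.162, 95% interval -0.88 to -0.04, adjusted p = 0.174, limma), and -0.29 without WT mouse 1. Cpe and Pcsk1 were at like levels in the WT mice, with ratios of Cpe to Pcsk1 FPKM of 1.03 and 1.83, and in the KO mice the ratios were 0.531 and 0.358. These ratios did not overlap between the genotypes, and with 2 mice against 2 an exact two-sided permutation test cannot give a p below 0.333.

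Pam, which encodes the enzyme that amidates the ends of many peptide hormones, was 3.29 and 3.80 FPKM in the WT mice and 3.75 and 3.37 FPKM in the KO mice. The genotypes overlapped (log2 fold change 0.01, 95% interval -0.36 to 0.37, adjusted p = 0.985, limma). The convertases and carboxypeptidases that serve constitutive secretion in most cells were a separate list of 8 genes. Of these, 0 passed the adjusted test in either direction, 7 had a positive and 1 a negative log2 fold change, 3 were higher and 1 lower by the unadjusted p, and the median was 0.20. Those with the highest levels were Mbtps1, the site-1 protease (log2 fold change 0.15), Furin, the ubiquitous proprotein convertase (0.32), and Cpd, carboxypeptidase D (0.07), with adjusted p-values of 0.285, 0.135 and 0.689 from limma. For Furin both KO mice, at 23.1 and 24.1 FPKM, were above both WT mice, at 17.6 and 20.1 FPKM.

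**Figure D2:**
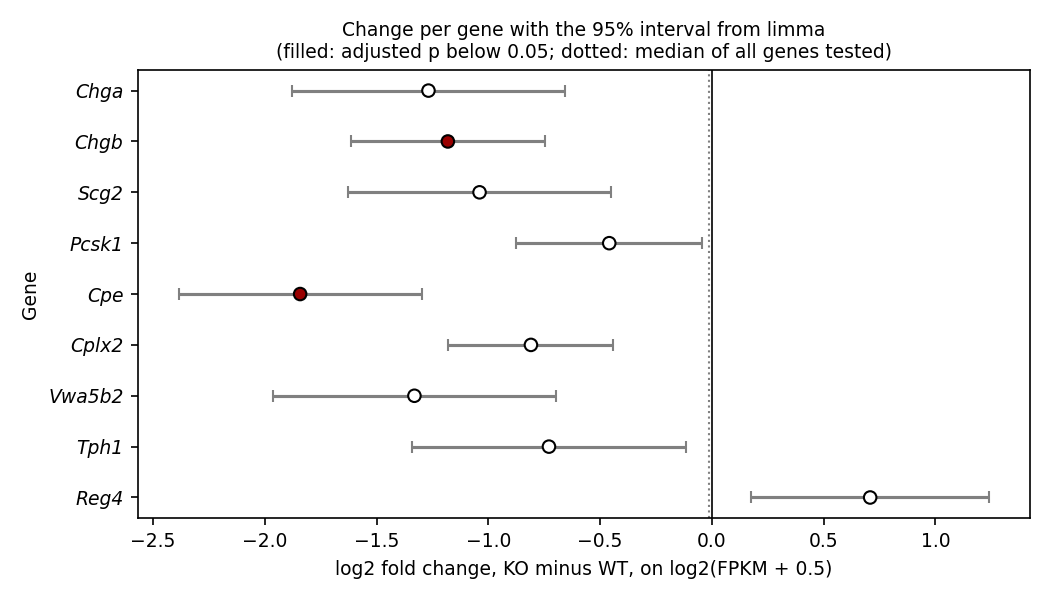
Log2 fold change of each gene, KO minus WT, with the 95% interval from limma; filled points have an adjusted p below 0.05 and the dotted line is the median of all genes tested. The intervals of 8 genes lie below 0 and that of Reg4 lies above it, and only Chgb and Cpe are filled.

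Cplx2, which encodes complexin 2, a protein that binds the assembled SNARE complex and tunes calcium-triggered fusion of granules, lies on chromosome 13 (54301964 to 54383923, plus strand, 4 exons). It was 5.30 and 4.92 FPKM in the WT mice and 2.45 and 2.97 FPKM in the KO mice. Mice of a genotype were close to each other and the KO mean was 53.0% of the WT mean. The fitted difference was -0.81 on the log2 scale (standard error 0.143, 95% interval -1.18 to -0.44, adjusted p = 0.0595, limma). Of the 50-base words of its transcripts, 2.10% also occur in another gene, the highest share among the 9.

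Of the other complexin genes, none was above the filter, and Cplx1, Cplx3 and Cplx4 did not exceed 0.15 FPKM in any mouse. Of the 12 other tested genes of regulated exocytosis, 0 passed the adjusted test in either direction, 10 were negative and 2 positive, 4 were lower and 0 higher by the unadjusted p, and the median was -0.18. Rab27a, a small GTPase that tethers granules, was 2.71 and 4.28 FPKM in the WT mice and 1.53 and 1.33 FPKM in the KO mice (log2 fold change -1.02, adjusted p = 0.0881, limma).

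Rph3al, which encodes a Rab effector, had the highest level of this list and was 26.7 and 36.3 FPKM in the WT mice and 25.7 and 26.2 FPKM in the KO mice (log2 fold change -0.26, adjusted p = 0.367, limma). Vamp2, the granule SNARE, overlapped between the genotypes (0.05, adjusted p = 0.763). Rab3d, a granule GTPase of exocrine and endocrine cells, was 16.7 and 19.1 FPKM against 8.79 and 12.8 FPKM (-0.72, adjusted p = 0.111). In the list of 22 genes for membrane fusion in all cells, 0 passed in either direction, 12 were negative and 10 positive, 4 were lower and 2 higher by the unadjusted p, and the median was -0.04. Its most abundant genes, Vamp8, Rab8a and Stxbp2, differed by -0.13 (adjusted p = 0.310), -0.39 (adjusted p = 0.10) and -0.33 (adjusted p = 0.224) on the log2 scale.

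Ptprn2, which encodes a tyrosine phosphatase-like protein of the granule membrane, was the only gene outside the 9 that passed the adjusted test as lower among the 61 pathway genes tested, where 2.67% of all genes passed. It was 4.51 and 6.03 FPKM in the WT mice and 1.80 and 1.77 FPKM in the KO mice. The KO mice were nearly equal and at 33.9% of the WT mean (log2 fold change -1.32, standard error 0.176, adjusted p of 0.0376, limma's moderated test). Among the 8 tested genes of the granule membrane, 6 were negative and 2 positive, with a median of -0.61. The 2 positive genes, Atp6ap1 and Atp6v0a1, encode parts of the proton pump that acidifies granules and also lysosomes, and stood at 0.04 (adjusted p = 0.751) and 0.24 (adjusted p = 0.242). Over all 61 genes, 1 was lower and 0 were higher by the adjusted test, 18 were lower and 5 higher by the unadjusted p, and the median was -0.10.

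Vwa5b2, which encodes a protein with a von Willebrand factor A domain, lies on chromosome 16 (20589428 to 20605378, plus strand, 23 exons). It was 4.67 and 5.78 FPKM in the WT mice and 2.29 and 1.34 FPKM in the KO mice. The lower WT mouse was above the higher KO mouse, and the log2 fold change was -1.33 (standard error 0.246, 95% interval -1.96 to -0.70, adjusted p = 0.0623, limma). Exons of Alg3 and of the antisense gene Gm49748 overlap its exons on the opposite strand. Whether the libraries kept strand is not given in the sources used here, and without strand the reads of overlapping genes cannot be told apart. Alg3 itself was 15.7 and 13.0 FPKM in the WT mice and 12.9 and 14.8 FPKM in the KO mice (log2 fold change -0.05, adjusted p = 0.863). Of the related genes, Vwa5a was 8.58 and 10.6 FPKM against 6.11 and 7.61 FPKM (-0.45, adjusted p = 0.172) and Vwa5b1 was at most 0.03 FPKM.

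Tph1, which encodes tryptophan hydroxylase of the gut, the rate-limiting enzyme of serotonin synthesis, lies on chromosome 7 (46644641 to 46672537, minus strand, 11 exons). It was 2.40 and 2.59 FPKM in the WT mice and 0.99 and 1.69 FPKM in the KO mice. The KO mice differed from each other by 1.71 times, about as much as for Chga, and both were below the WT mice. Its log2 fold change was -0.73 (standard error 0.238, 95% interval -1.34 to -0.12, adjusted p = 0.152, limma), and -0.45 without KO mouse 1. Tph2, the hydroxylase of neurons, was not analysed here.

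Ddc, which encodes the decarboxylase of the next step and is also active in enterocytes, was 40.6 and 44.7 FPKM in the WT mice and 29.2 and 33.5 FPKM in the KO mice (log2 fold change -0.44, adjusted p = 0.0881, limma). Tph1 was thus a small fraction of Ddc in FPKM, with ratios of 0.0592 and 0.0580 in the WT mice and 0.0340 and 0.0504 in the KO mice. The vesicular monoamine transporters Slc18a1 and Slc18a2, which load serotonin into granules, summed to 2.28 and 2.18 FPKM in the WT mice and 1.31 and 1.43 FPKM in the KO mice. Separately, Slc18a1 had a log2 fold change of -0.58 (adjusted p = 0.196) and Slc18a2 one of -0.33 (adjusted p = 0.386). Slc6a4, the serotonin uptake transporter of epithelial cells, overlapped between the genotypes (0.12, adjusted p = 0.739).

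Of the 11 tested genes of serotonin metabolism other than Tph1, 0 passed the adjusted test in either direction, 8 were negative and 3 positive, 4 were lower and 0 higher by the unadjusted p, and the median was -0.31. The most abundant were Qdpr, Spr and Pcbd1, which make or recycle the tetrahydrobiopterin cofactor of tryptophan hydroxylase. They differed little, by 0.06 (adjusted p = 0.769), 0.01 (adjusted p = 0.962) and -0.13 (adjusted p = 0.399, limma) on the log2 scale. Gch1, the entry enzyme of the cofactor pathway, was 2.24 and 2.58 FPKM in the WT mice and 1.21 and 1.61 FPKM in the KO mice (-0.61, adjusted p = 0.142).

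Reg4, which encodes a secreted C-type lectin of the regenerating gene family and is made by enteroendocrine and other secretory cells, lies on chromosome 3 (98222138 to 98236748, plus strand, 6 exons). It was 15.3 and 10.2 FPKM in the WT mice and 19.1 and 22.5 FPKM in the KO mice. The KO mean was 163% of the WT mean, and the lower KO mouse was above the higher WT mouse by a small margin, since 15.3 FPKM in the one compares with 19.1 FPKM in the other. The log2 fold change of 0.71 (standard error 0.207, 95% interval 0.18 to 1.24) did not pass the adjusted test (adjusted p = 0.128, limma), and it was 0.43 without WT mouse 2. The intervals of the other 8 genes all lay below 0.

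The other tested genes of the Reg family, antimicrobial and growth-related lectins of the crypt, did not share the sign of Reg4. Reg1, Reg3a, Reg3b and Reg3g differed by -0.49, -0.04, -0.75 and -1.21 on the log2 scale, with adjusted p-values between 0.239 and 0.949. Mice of a genotype differed widely in these genes. Reg3b was 197 and 456 FPKM in the WT mice and 121 and 262 FPKM in the KO mice. Reg2 and Reg3d did not exceed 0.22 FPKM.

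Between the KO mice, mouse 2 was above mouse 1 in 7 of the 9 genes and below it in Cpe and Vwa5b2, where it came to 0.738 and 0.585 times mouse 1. Without Reg4, the remaining 8 genes summed to 105.2 and 102.3 FPKM in the WT mice and 38.7 and 51.5 FPKM in the KO mice. The WT mice were close in that sum, but its single genes went either way between them. WT mouse 2 came to between 0.774 times mouse 1 in Pcsk1 and 1.37 times in Cpe. In Reg4, outside the sum, it came to 0.666 times.

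Summed FPKM of the enteroendocrine hormone list was 141 and 243 in the WT mice and 36.6 and 41.6 in the KO mice, and 7 of 7 tested genes were negative, with a median log2 fold change of -1.86. Ghrl, Cck and Tac1, which encode ghrelin, cholecystokinin and the substance P precursor, passed the adjusted test as lower, and Sct, which encodes secretin, overlapped between the genotypes (8.69 and 12.3 against 2.11 and 10 FPKM). The transcription factors of the lineage summed to 46.6 and 65.6 FPKM in the WT mice and 23.9 and 16.2 FPKM in the KO mice. All 11 tested were negative with a median of -1.25, and Neurod1 and Pax4 passed.

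These lists were further apart between the WT mice than the 9 genes were. Goblet cell markers, for mucus-secreting cells, summed to 1506 and 2507 FPKM in the WT mice and 831 and 958 FPKM in the KO mice. All 12 were negative with a median of -1.09, and Spink4, Ccl9 and Ern2 passed the adjusted test. Tuft cell markers summed to 24.5 and 52.8 FPKM in the WT mice and 21.4 and 8.43 FPKM in the KO mice, with 7 of 7 tested negative. The part of these cell type differences in the result for the 9 genes was not tested.

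Stem cell markers summed to 6417 and 6248 FPKM in the WT mice and 6957 and 6747 FPKM in the KO mice, with 11 of 12 positive and a median of 0.22. Paneth cell markers ranged from 869 to 2687 FPKM, with both extremes in the KO mice, and enterocyte markers from 626 to 977 FPKM. Granins, Pcsk1, Cpe and Cplx2 are also expressed by neurons, and Tph1 by mast cells. Enteric neuron markers summed to 2.40 and 2.81 FPKM in the WT mice and 1.10 and 0.88 FPKM in the KO mice, without overlap. The 2 of them above the filter, Nefm (0.79 and 0.94 against 0.27 and 0.16 FPKM) and Tubb3 (0.81 and 0.89 against 0.41 and 0.13 FPKM), had log2 fold changes of -0.93 and -0.83 and did not pass the adjusted test (adjusted p = 0.121 and 0.178). Elavl4 was at most 0.06 and Phox2a at most 0.04 FPKM. Enteric glia markers also did not overlap, at 1.95 and 1.77 FPKM in the WT mice and 1.48 and 1.49 FPKM in the KO mice. Mast cell markers overlapped, at 0.72 and 0.45 FPKM in the WT mice and 0.25 and 2.14 FPKM in the KO mice, of which Mcpt1 was 1.18 FPKM in KO mouse 2 and 0 in the others, Hdc was at most 0.72 FPKM and Cpa3 at most 0.04 FPKM. The part of the neuron and glia differences in the result was not tested. Other immune markers summed to between 7.20 and 17.5 FPKM, and those of mesenchyme and endothelium to at most 0.68 FPKM.

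**Figure D3:**
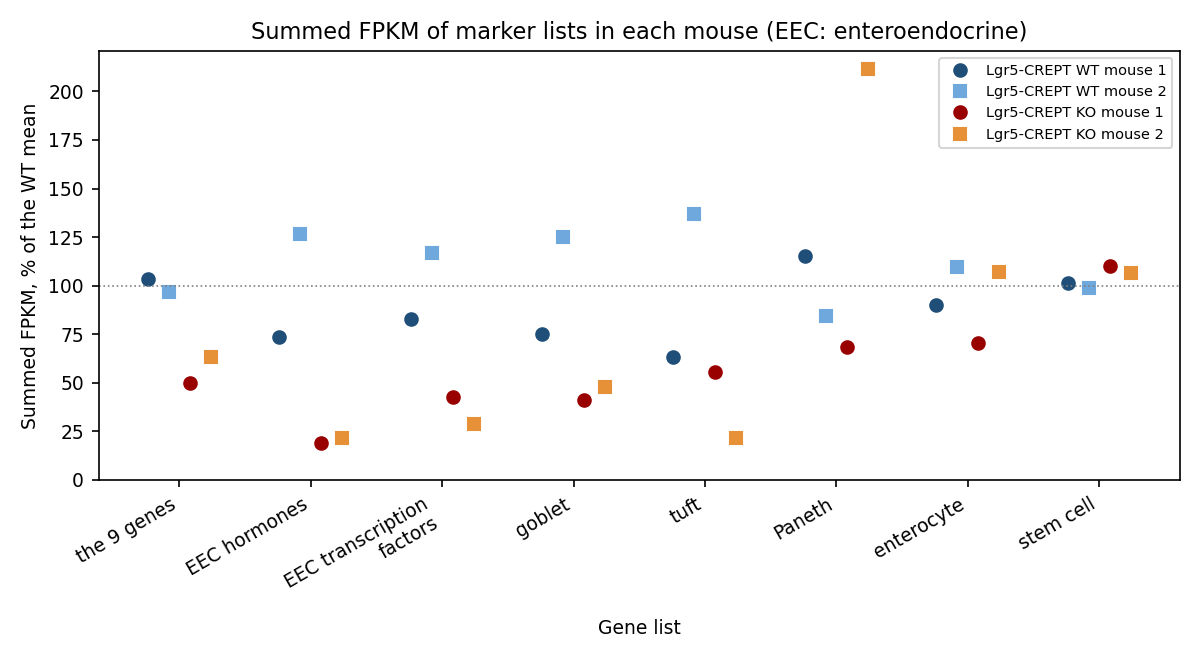
Summed FPKM of the 9 genes and of cell type marker lists in each mouse, as a percentage of the WT mean of the same list (dotted line at 100%). Both KO mice lie below both WT mice for the 9 genes, the enteroendocrine hormones and transcription factors, the goblet and the tuft markers. For the stem cell markers both KO mice lie slightly above both WT mice.

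The genes whose pattern over the 4 mice was nearest to the mean of the 9 were sought among 9017 other genes whose mean reached 5 FPKM. On the log2 scale, the 9 genes deviated on average from their own means by 0.45 and 0.43 in the WT mice and by -0.53 and -0.35 in the KO mice. Among the nearest were Csf2ra, a cytokine receptor subunit, Scnm1, a splicing factor, Fuom, a fucose mutarotase, and Slc25a11, a mitochondrial carrier. Their root mean square difference from the mean of the 9 ran from 0.0140 to 0.0281, their log2 fold changes from -0.90 to -0.84 and their adjusted p-values from 0.0333 to 0.0363 (limma). With 4 mice in 2 genotypes, a gene lies near this pattern if its genotypes differ by a like amount and its mice of a genotype are close.

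**Figure D4:**
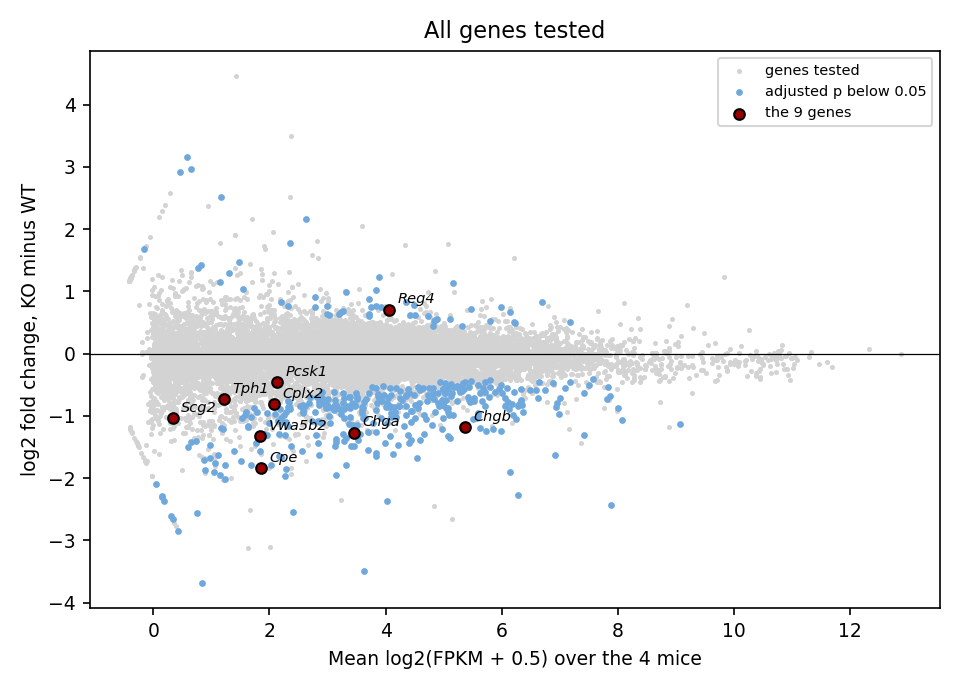
Log2 fold change, KO minus WT, against mean log2(FPKM + 0.5) over the 4 mice for all 12621 genes tested, with genes at an adjusted p below 0.05 in blue and the 9 genes in red. The 8 lower genes span the range of levels from Scg2 to Chgb and the log2 fold changes from -0.46 to -1.84, and Reg4 lies above 0 at 0.71.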

How the data were processed

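RNA of sorted Lgr5-GFPhigh cells from 2 WT and 2 KO mice was sequenced on a BGISEQ-500 instrument. The authors deposited 1 table of FPKM values, with 1 column per mouse. The submitters' processing notes name HISAT, Bowtie2, RSEM and mm10, and the study's methods, written for crypts and intestines, describe Bowtie2 mapping to GRCm38.p6 and RSEM. FPKM is relative to all other genes of a mouse. Genes whose mean reached 0.5 FPKM were compared on log2(FPKM + 0.5) with limma 3.58.1 in R 4.3.3 (lmFit, and eBayes with an intensity trend), with Benjamini-Hochberg adjustment over 12621 genes. The study used a count model, which FPKM does not allow. Tables were handled with pandas 2.3.3 and scipy 1.17.1 (Python 3.11.15), and plots drawn with matplotlib 3.10.9.

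The 9 genes and all lists were chosen with earlier results of these data known, and same-numbered mice are different animals. Genes named besides the 9 were those of the pathway and family lists with an adjusted p below 0.05, the 3 of highest mean FPKM in each such list, the 5 of nearest pattern (1 of them is not reported here), the cell type markers and Rprd1b. Alg3, Rab27a, Ddc, Gch1, Slc18a1, Slc18a2, Slc6a4, Scg3, Scg5, Vgf, Pcsk1n, Reg2, Reg3a, Reg3d and the other complexins fall outside that rule and were named after their values were seen. Gene positions and promoters are from RefSeq, exons and transcript lengths from GENCODE M21, both on GRCm38.p6. The fit was also run on simulated data with a fixed spread between mice and larger changes than in most of the 9 genes. That run does not show how the fit performs on these genes.

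Pseudocount, filter, scaling, intensity trend, replicate block, transcript length and each mouse left out were varied. P-values rest on the spread between 2 mice per genotype, which limma draws toward a trend over all genes tested.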

Additional observations from a re-analysis of the deposited data

How the results depend on the processing

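The log2 fold change of a gene is the same whatever the filter, intensity trend, replicate block or transcript length. A pseudocount or a mouse left out cannot reverse it where the genotypes do not overlap, as in the 9 genes, Ptprn2 and Rprd1b. Only the scalings could have changed a sign. Scg2 was below the filter at a mean of 1 FPKM and has no value there. The log2 fold changes of all 9 genes, of Ptprn2 and of Rprd1b kept their sign under the alternatives tried. Among the 9 genes they ran from -2.10 to -1.61 for Cpe, from -1.42 to -0.94 for Chgb and from 0.43 to 0.99 for Reg4, with adjusted p-values of 0.0205 to 0.305, 0.0256 to 0.306 and 0.101 to 0.379. Those of the others ran from -1.62 to -0.92 for Chga, -1.56 to -0.74 for Scg2, -0.63 to -0.29 for Pcsk1, -0.93 to -0.69 for Cplx2, -1.63 to -1.03 for Vwa5b2 and -1.01 to -0.45 for Tph1. The counts at an adjusted p below 0.05 were less stable, and the cause was not tested. Over all genes, 337 were lower and 52 higher as reported. These counts were 0 and 0 without the filter on low values and 4 and 0 without the intensity trend. They were 520 and 126 without genes lacking a transcript of at least 200 bases in GENCODE M21, including genes not found there. That alternative was chosen after the data were seen. Rescaling to a common total gave 85 higher. Of the 9 genes, 2 were lower, both with a log2 fold change below -1. These were 0 and 0 without the filter and without the trend, and 5 and 4 without the genes of short or unmatched transcripts. The pathway genes outside the 9 that were lower, 1 as reported, were 0, 0 and 3. With each mouse left out in turn, where the lone mouse is assumed to vary like the others, each of these 5 counts ranged from 0 to 0, with a smallest adjusted p between 0.144 and 0.305.

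The replicate block, with the mouse number as a term, gave 168 genes lower and 15 higher, 1 of the 9 genes lower (Cpe, adjusted p = 0.0483, also below -1) and 0 pathway genes. Chgb had an adjusted p of 0.0514 with it. Same-numbered mice are different animals. The deviations of mouse 1 from its genotype mean had a correlation of -0.027 between genotypes across 12621 genes. The sample labels do not say whether same-numbered mice were handled together, and 1 such correlation cannot settle it. Depth limits Scg2 most, with an estimated 14.5 and 19.5 reads in the KO mice.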
